A study of Mus musculus with 2 samples.

Results

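Bone morphogenetic protein (BMP) signalling was described through 10 mouse genes: the type I receptors Bmpr1a, Bmpr1b and Acvr1, the type II receptors Bmpr2 and Acvr2a, the co-receptor Tgfbr3, the ligands Bmp2, Bmp4 and Bmp6, and the inhibitory Smad gene Smad6. The 10 genes were taken by symbol from the 32285 genes listed for each library, each symbol matching 1 gene. They were followed over all 1857 barcodes, those with over 20% mitochondrial UMIs (unique molecular identifiers, one for each captured RNA molecule) included. The series holds 2 libraries of whole blood, taken from wild-type mice that had burn/tenotomy, a burn injury combined with the cutting of a tendon that is followed by bone formation in soft tissue. The blood was enriched with the iChip, a microfluidic cell sorter, and barcoded on the 10x Chromium platform. Both libraries carry the same genotype and treatment and form 1 group. Blood without the injury was not analysed here, and the labels do not say whether the libraries came from separate mice or from pooled blood, so the spread between them may be technical.

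BMPs are secreted dimers that bring type I and type II receptors together at the cell surface. The type II kinase phosphorylates the type I kinase, which phosphorylates Smad1, Smad5 and Smad9. These enter the nucleus with Smad4 and switch on genes such as Id1 and Id3, while Smad6, itself a target in many cells, blocks the type I receptor. The pathway drives cartilage and bone formation, and activating mutations of ACVR1 cause inherited heterotopic ossification in humans.

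The comparison set barcodes with mesothelial and collagen markers against barcodes with leukocyte RNA and against red cells. The mesothelial-marker set held barcodes with UMIs of at least 2 of the 5 genes Wt1, Muc16, Gpm6a, Col3a1 and Dcn: 30 in replicate 1 and 23 in replicate 2. The Ptprc set held barcodes with a UMI of Ptprc, the pan-leukocyte surface phosphatase CD45: 81 in replicate 1 and 12 in replicate 2. The globin set held barcodes with at least 50% globin UMIs, 471 in replicate 1 and 373 in replicate 2. Another 863 barcodes met none of these rules, and 4 barcodes met more than 1 and were left out. The libraries shared 0 barcode sequences.

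The depth differed between the sets. The mesothelial-marker sums held 96207 and 123730 UMIs in replicates 1 and 2, with medians of 2160 and 4592 UMIs per barcode. The Ptprc sums held 188868 and 25627 UMIs, with medians of 1629 and 1603.5 UMIs. The Ptprc set of replicate 2 stood apart: its median mitochondrial share was 56.7%, against 13.2% in replicate 1, and 3 UMIs there equal 117 CPM (counts per 1e6 UMIs of a set). Further markers were then counted, which the rules did not use, apart from Ptprc among the leukocyte genes. All 10 further mesothelial genes tried, among them Msln, Upk3b and Lrrn4, were found in the mesothelial-marker set, at 2796 and 4025 CPM in sum, against 0 and 156 CPM in the Ptprc set. Of 8 fibroblast genes 6 were found, at 582 and 1132 CPM, and Lum and Postn were at 0. Of 12 leukocyte genes 4 were found in the mesothelial-marker set, at 62.4 and 72.7 CPM, against 30842 and 8507 CPM in the Ptprc set. By the rules Ptprc itself is at 0 in the mesothelial-marker set and present in every Ptprc barcode, where it gave 1963 ± 789 CPM of the sum. S100a8 and S100a9 gave 1944 and 2384 UMIs in the Ptprc set, each in 8 of 93 barcodes. Of 12 endothelial genes 2 were found in the mesothelial-marker set, at 41.6 and 32.3 CPM, and Cdh5, Flt1, Tek and Emcn were at 0.

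Promoter sequence is shown for 3 of the receptor genes with a RefSeq promoter entry, Bmpr1a, Bmpr1b and Bmpr2. Tgfbr3 and Bmp2 had no entry. The sequences are the 250 bases before the RefSeq transcript start (build GRCm38.p6), read 5′ to 3′ on the gene's strand. Capitals mark GGCGCC, a GC-rich word of the kind that Smad1 and Smad5 bind, which reads the same on both strands. The Bmpr1a window is chr14:34502547-34502796 on the minus strand, the Bmpr1b window is chr3:141982265-141982514 on the minus strand, and the Bmpr2 window is chr1:59764029-59764278 on the plus strand.
Bmpr1a: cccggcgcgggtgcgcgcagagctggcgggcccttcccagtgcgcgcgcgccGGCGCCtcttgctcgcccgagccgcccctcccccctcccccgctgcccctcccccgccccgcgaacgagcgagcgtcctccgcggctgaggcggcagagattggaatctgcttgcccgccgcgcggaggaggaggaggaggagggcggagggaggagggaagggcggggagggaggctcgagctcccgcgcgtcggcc
Bmpr1b: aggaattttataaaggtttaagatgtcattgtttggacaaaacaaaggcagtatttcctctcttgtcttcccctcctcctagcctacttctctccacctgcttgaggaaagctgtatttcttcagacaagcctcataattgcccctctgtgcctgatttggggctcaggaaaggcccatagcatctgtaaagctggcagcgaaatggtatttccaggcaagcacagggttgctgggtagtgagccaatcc
Bmpr2: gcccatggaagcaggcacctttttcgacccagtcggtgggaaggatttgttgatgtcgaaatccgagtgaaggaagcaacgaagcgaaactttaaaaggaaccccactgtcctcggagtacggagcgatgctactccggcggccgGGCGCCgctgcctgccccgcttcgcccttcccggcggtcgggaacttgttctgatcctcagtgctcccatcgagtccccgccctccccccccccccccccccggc
The Bmpr1a window held 78.8% G and C and 36 CG pairs. The Bmpr1b window, which belongs to 1 of 3 RefSeq starts of that gene, held 46.8% G and C and 1 CG pair. It lies well inside the Bmpr1b gene, whose 5′ end on the minus strand is at 142169425. The Bmpr1a and Bmpr2 windows lie close to the 5′ ends of their genes, at 34503341 and 59763400. The Bmpr2 window held 64% G and C and 22 CG pairs. Over 32851 RefSeq windows of this length the median was 52.4% G and C with 6 CG pairs, so the Bmpr1a and Bmpr2 windows lay above the median and the printed Bmpr1b window lay under it. The other Bmpr1b windows, not shown, held 52.8% and 56.4% G and C, close to or above the median, with 5 CG pairs each. Of the 8 members with an entry, Bmpr1a and Bmpr2 held GGCGCC, 198 and 105 bases before the start, and 9.59% of all windows held it. The other members with an entry were Acvr1, Acvr2a, Bmp4, Bmp6 and Smad6. A match is a run of letters and not a shown binding site.

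All 10 members were detected in the mesothelial-marker set, with 403 UMIs in sum. Their summed level was 1830 ± 29.8 CPM in the mesothelial-marker set (SD, n = 2 libraries), 87.4 ± 124 CPM in the Ptprc set and 67.7 ± 1.76 CPM in the remaining barcodes. Mitochondrial genes made up 79.9% and 62.5% of the UMIs of the remaining barcodes in replicates 1 and 2, which lowers CPM there. Per 1e6 UMIs other than globin and mitochondrial ones, Tgfbr3 stood at 125 ± 37.9 there and 575 ± 122 in the mesothelial-marker set. Bmpr1b stood at 97.8 ± 11.6 and 438 ± 110 on that scale, and Bmpr1a at 4.07 ± 5.76 and 362 ± 35.8. At least 1 member was found in 45 of 53 mesothelial-marker barcodes (84.9%), in 16 of 93 Ptprc barcodes (17.2%), in 47 of 863 remaining barcodes (5.45%) and in 5 of 844 globin barcodes (0.592%). The globin barcodes had the highest depth in all UMIs, with medians of 5972 and 6048 UMIs, and the lowest share. Globin made up 88.3% and 89.4% of those UMIs in replicates 1 and 2. Other than globin and mitochondrial ones, the 844 globin barcodes held 653374 UMIs and the 53 mesothelial-marker barcodes 191779. With every barcode thinned to 500 UMIs, the share with a member was 55.2% and 48.1% in the mesothelial-marker sets of replicates 1 and 2, against 90% and 78.3% before thinning. It was 5.96% and 0% in the Ptprc sets, 3.48% and 2.98% in the remaining barcodes, and 0% and 0.168% in the globin sets. Thinning counts globin and mitochondrial UMIs too, so it does not even out the UMIs left for other genes. Intervals and floors given for levels and shares cover counting error only.

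**Figure D1:**
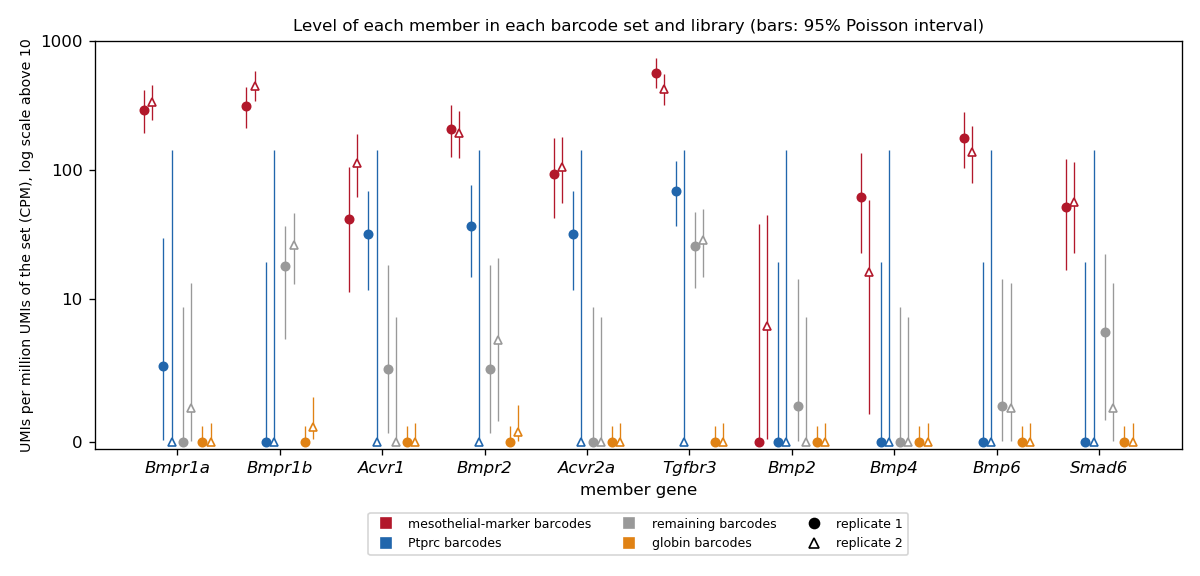
Level of each of the 10 genes in CPM (vertical axis, linear below 10 and logarithmic above) for each barcode set (colour) and library (filled circles replicate 1, open triangles replicate 2), with exact 95% Poisson intervals. For every gene but Bmp2 both mesothelial-marker points lie above all points of the other sets. Besides Bmp2, the intervals of Acvr1, Acvr2a and Smad6 overlap those of the Ptprc set in replicate 1. In replicate 2 those of Acvr1, Bmpr2, Acvr2a, Bmp4, Bmp6 and Smad6 do. The long intervals of the Ptprc set of replicate 2 show how little 25627 UMIs limit a count of 0.

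Type I receptors. Bmpr1a, the widely used BMP type I receptor ALK3, had 28 and 42 UMIs in the mesothelial-marker sets of replicates 1 and 2, against 1 and 0 UMIs in the Ptprc sets. Its level was 315 ± 34.2 CPM in mesothelial-marker barcodes and 2.65 ± 3.74 CPM in Ptprc barcodes (n = 2), and the libraries did not overlap. It was found in 16 of 30 and 13 of 23 mesothelial-marker barcodes, 0 of 844 globin barcodes and 1 of 863 remaining barcodes. The pooled ratio of mesothelial-marker over Ptprc barcodes was 68.3, with an exact 95% interval of 11.9 to 2734 set by the single Ptprc UMI.

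Bmpr1b, the type I receptor ALK6 that is needed for cartilage formation in digits, had 30 and 56 UMIs in the mesothelial-marker sets and 0 in both Ptprc sets. Its level was 382 ± 99.5 CPM in mesothelial-marker barcodes, at least 27.3-fold higher than the 3-UMI floor of the pooled Ptprc set. These UMIs were concentrated: 8 of 30 and 7 of 23 mesothelial-marker barcodes held them, and the deepest barcode of each library gave 40% and 53.6% of them. Without these 2 barcodes, a setting added after seeing the data, the level was 233 ± 28.1 CPM. Bmpr1a stood at 331 ± 82.6 CPM in the same setting.

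Acvr1, the type I receptor ALK2, had 4 and 14 UMIs in the mesothelial-marker sets, against 6 and 0 UMIs in the Ptprc sets. Its level was 77.4 ± 50.6 CPM in mesothelial-marker barcodes and 15.9 ± 22.5 CPM in Ptprc barcodes. In replicate 1 the intervals overlapped, at 41.6 CPM (11.3 to 106) in mesothelial-marker barcodes and 31.8 CPM in Ptprc barcodes. The gene did not pass the filter on low counts and was not tested.

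Type II receptors and co-receptor. Bmpr2, the BMP-specific type II receptor, had 20 and 24 UMIs in the mesothelial-marker sets, against 7 and 0 UMIs in the Ptprc sets. Its level was 201 ± 9.84 CPM in mesothelial-marker barcodes and 18.5 ± 26.2 CPM in Ptprc barcodes, and the libraries did not overlap. Acvr2a, a type II receptor shared by activins and BMPs, had 9 and 13 UMIs in the mesothelial-marker sets, against 6 and 0 UMIs in the Ptprc sets. Its level was 99.3 ± 8.15 CPM in mesothelial-marker barcodes and 15.9 ± 22.5 CPM in Ptprc barcodes. For each member at 0 in the 12 Ptprc barcodes of replicate 2, the 95% interval there reaches up to 144 CPM.

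Tgfbr3, the large proteoglycan betaglycan that presents TGF-beta, inhibin and some BMPs to receptors, had 55 and 53 UMIs in the mesothelial-marker sets, against 13 and 0 UMIs in the Ptprc sets. Its level was 572 and 428 CPM in mesothelial-marker barcodes, against 68.8 and 0 CPM in Ptprc barcodes, and the libraries did not overlap. It was found in 20 of 30 and 13 of 23 mesothelial-marker barcodes, more than any other member in replicate 1 and as many as Bmpr1a in replicate 2. In the Ptprc set of replicate 1 its 13 UMIs lay in 3 barcodes, with 8 in 1 of them.

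Ligands and inhibitor. Bmp6, a ligand that also controls iron balance through hepcidin in the liver, had 17 and 17 UMIs in the mesothelial-marker sets and 0 in both Ptprc sets. Its level was 157 ± 27.8 CPM in mesothelial-marker barcodes, at least 11.1-fold higher than the floor of the pooled Ptprc set. In replicate 1, the deepest barcode gave 12 of the 17 UMIs (70.6%); in replicate 2 the highest barcode gave 4 of 17. Bmp4, a ligand of mesoderm and bone, had 6 and 2 UMIs in the mesothelial-marker sets and 0 in both Ptprc sets, at 39.3 ± 32.7 CPM in mesothelial-marker barcodes. Bmp2, a bone-inducing ligand, had 0 and 1 UMI in the mesothelial-marker sets and 0 in both Ptprc sets, so its level was not measurable at this depth. Smad6 had 5 and 7 UMIs in the mesothelial-marker sets and 0 in both Ptprc sets. Its level was 54.3 ± 3.26 CPM in mesothelial-marker barcodes, at least 3.88-fold higher than the floor of the pooled Ptprc set. In replicate 1 the 95% intervals of Smad6 overlapped, at 16.9 to 121 CPM in mesothelial-marker barcodes and 0 to 19.5 CPM in Ptprc barcodes. In replicate 2 Smad6 at 56.6 CPM and Bmp4 at 16.2 CPM lay under the Ptprc floor of 117 CPM, so replicate 2 alone did not show them higher.

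Against the globin set the members were set apart further, on a scale that globin itself compresses, since it made up 88.3% and 89.4% of the UMIs there. Bmpr1b had 3 UMIs and Bmpr2 had 2 UMIs in the globin set, all in replicate 2, and the other 8 members had 0. Mesothelial-marker barcodes were at least 987-fold higher than the globin floor for Tgfbr3, at least 633-fold for Bmpr1a, at least 311-fold for Bmp6, at least 155-fold for Acvr1, at least 109-fold for Smad6 and at least 73.1-fold for Bmp4. Over UMIs other than globin and mitochondrial ones the bounds were lower, at least 123-fold for Tgfbr3, 78.8-fold for Bmpr1a, 38.6-fold for Bmp6 and 9.09-fold for Bmp4.

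Levels of different genes were set side by side per kilobase of gene span, since long genes can collect more reads where introns are counted; no source used here says whether they were. On that scale, in mesothelial-marker barcodes, Bmp4 stood at 5.49 ± 4.57 CPM per kb, Bmpr1a at 3.40 ± 0.370, Tgfbr3 at 2.73 ± 0.554 and Bmpr2 at 1.74 ± 0.0851. Bmpr1b, whose gene spans 332 kb, stood at 1.15 ± 0.300, Acvr2a at 1.11 ± 0.0914 and Bmp6 at 1.01 ± 0.179 CPM per kb. Smad6 followed at 0.787 ± 0.0472, Acvr1 at 0.433 ± 0.284 and Bmp2 at 0.377 ± 0.533. Bmp4 did not differ from Bmpr1a beyond the spread of the 2 libraries, nor did Bmpr1a from Tgfbr3, nor Bmpr1b, Acvr2a and Bmp6 from each other. Per kilobase of exon the order was different: Tgfbr3 stood at 76.4 ± 15.5, Bmpr1b at 64.1 ± 16.7, Bmpr1a at 49.6 ± 5.39 and Bmp6 at 40.3 ± 7.13 CPM per kb of exon. Bmp4 was at 17.5 ± 14.5 and Bmpr2 at 11.2 ± 0.547 on this scale, so the order between genes depends on which length is used. The Bmpr1a gene lies on chromosome 14 at 34410734 to 34503341, Bmpr1b on chromosome 3 at 141837136 to 142169425, and Bmpr2 on chromosome 1 at 59763400 to 59879014 (mm10, GENCODE M21).

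The difference between the mesothelial-marker and the Ptprc sums was tested with edgeR's quasi-likelihood test over 2183 genes, with the library as a block. Of the 6 members that passed the filter on low counts, 5 were called higher in the mesothelial-marker sums at an adjusted p under 0.05 and 0 lower, where 20.3% of all genes tested were called higher and 9.67% lower. Acvr1, Bmp2, Bmp4 and Smad6 were not tested. All 6 passed the filter only through the mesothelial-marker sums, where they were high. The count of 5 and the p-values of these members are therefore given as a description. Bmpr1a was higher by 5.95 ± 1.25 on the log2 scale (edgeR, Benjamini-Hochberg adjusted p = 2.52e-05). Here ± is an approximate SE, worked back from the fold change and the F statistic, since the test gives none. Tgfbr3 was higher by 3.75 ± 0.96 (edgeR adjusted p = 0.000574) and Bmpr2 by 3.07 ± 1.01 (edgeR adjusted p = 0.00937). For Bmpr1b and Bmp6 the fitted values of 8.30 and 7.38 depend on the prior count and are no bounds (edgeR adjusted p = 1.92e-06 and 0.000102). Acvr2a had a log2 fold change of 2.18 ± 1.09 and was not called (edgeR adjusted p = 0.130). Over all genes tested, the log2 fold change had a median of 0.22.

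The test had 1 residual degree of freedom, and its spread was wholly the one shared across genes, so how far the libraries differed in 1 gene does not enter that gene's p-value. Replicate 1 alone gave log2 ratios of 5.78 for Bmpr1a, 3.05 for Tgfbr3 and 2.49 for Bmpr2, and bounds of at least 4.30 for Bmpr1b and at least 3.48 for Bmp6. Replicate 2 alone, where the Ptprc sum held none of the members, gave log2 ratios over the 3-UMI floor of 1.54 for Bmpr1a, 1.95 for Bmpr1b, 1.87 for Tgfbr3 and 0.73 for Bmpr2. Bmp6, at 137 CPM in the mesothelial-marker set of replicate 2, lay 0.23 above that floor but within the 144 CPM that the interval of a count of 0 allows, so replicate 2 alone did not show it higher. DESeq2 called 1 of the 6 members, Bmpr1b. Scaling by UMIs other than globin and mitochondrial ones changed the split over all genes to 406 higher and 325 lower, against 443 and 211, and called the same 5 members.

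**Figure D2:**
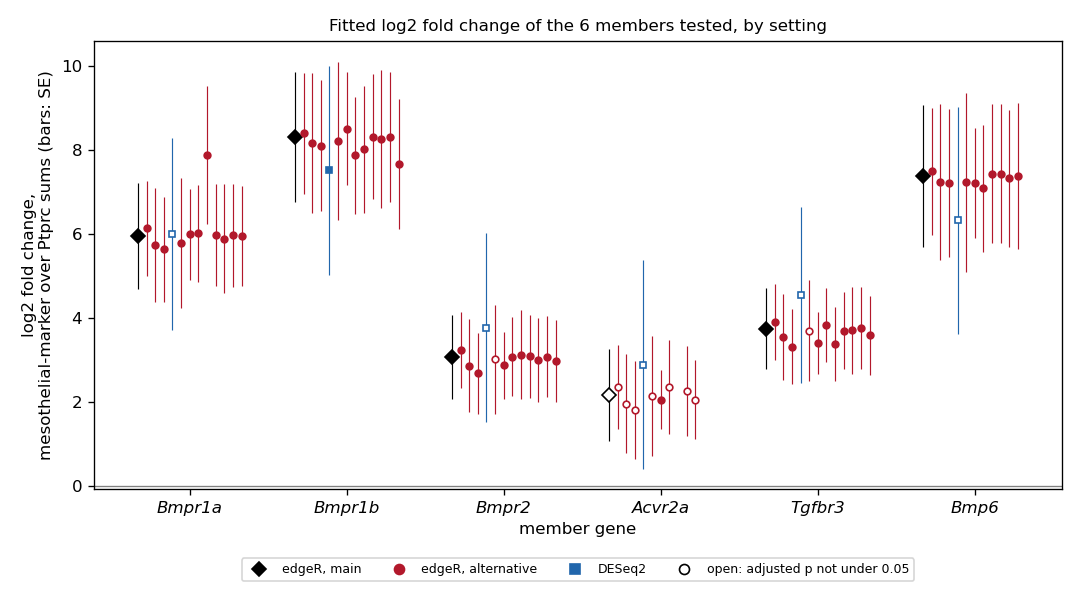
Fitted log2 fold change (vertical axis, mesothelial-marker over Ptprc sums, bars are SE) of the 6 genes tested, with the main edgeR setting as black diamonds, other edgeR settings as red circles and DESeq2 as blue squares; open symbols have no adjusted p under 0.05. The edgeR bars are worked back from the fold change and the F statistic, and the DESeq2 bars are the SE that DESeq2 gives. Every fitted value lies above 0, and Acvr2a is filled in 1 setting, the one with no library block.

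Co-detection showed which parts of the pathway met in 1 barcode. A type I and a type II receptor were found together in 21 of 53 mesothelial-marker barcodes (39.6%), 8 of 30 in replicate 1 and 13 of 23 in replicate 2. The same was seen in 1 of 93 Ptprc barcodes, 1 of 863 remaining barcodes and 0 of 844 globin barcodes, which allows a share of up to 0.355% of globin barcodes. Of the 15 mesothelial-marker barcodes with a ligand, 13 also held a type I receptor and 11 held both receptor types. At least 2 members were found in 34 mesothelial-marker barcodes and at least 5 in 11 of them, 3 in replicate 1 and 8 in replicate 2, with a maximum of 7. In the Ptprc set 3 barcodes held 2 members, and none of the 93 held more.

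Among pairs in the mesothelial-marker set, Bmpr1a and Tgfbr3 shared most barcodes: 24 of the 38 with either gene (63.2%), in like shares of 63.6% in replicate 1 and 62.5% in replicate 2. Bmpr1a and Bmpr2 shared 14 of 34, and Bmpr1a and Bmpr1b shared 12 of 32 (37.5%). Bmp6 shared 8 of 22 barcodes with Bmpr2 (36.4%) and 1 of 25 with Bmpr1b (4%). Bmp4 and Smad6 shared 0 of 17. Barcodes with Bmpr1a were deeper than those without it: the median was 3650.5 UMIs with it and 1552.5 without it in replicate 1, and 6417 with it and 2716.5 without it in replicate 2. The members found in both libraries had a higher median depth with the gene than without it in each, except Smad6 in replicate 1, at 1554 UMIs with it and 2192 without it. The part of depth in the pair counts was not tested.

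**Figure D3:**
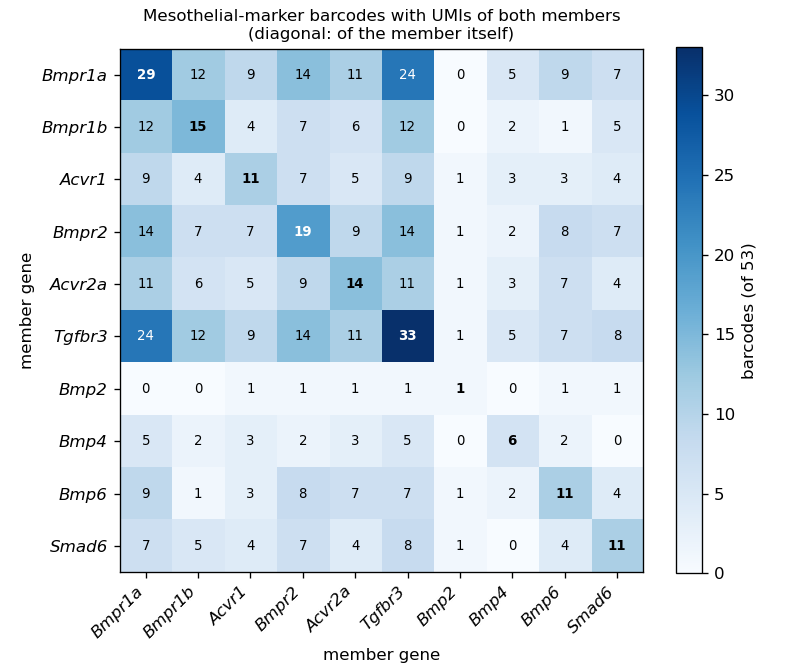
Number of the 53 mesothelial-marker barcodes with UMIs of both genes of a pair (rows and columns are genes, colour and printed numbers are barcodes, the diagonal is the gene by itself). The pair of Bmpr1a and Tgfbr3 has 24 barcodes, and Bmpr1b with Bmp6 has 1.

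The members were not spread evenly within the mesothelial-marker set. All 86 Bmpr1b UMIs lay in the 40 barcodes with Gpm6a, and 85 of them lay in the 39 barcodes with the collagen gene Col3a1. The deepest barcodes of replicates 1 and 2, each with all 5 markers, held 12 and 30 of the 86. The level of Bmpr1b was 474 ± 142 CPM with Col3a1 and 27.0 ± 38.2 CPM without it. Bmpr1a, by contrast, stood at 307 ± 15.6 CPM with Col3a1 and 344 ± 105 CPM without it, which overlap. Acvr1 and Smad6 ran the other way, from few UMIs. Acvr1 stood at 48.8 ± 32.6 CPM with Col3a1 (9 UMIs) and 187 ± 112 CPM without it (9 UMIs). Smad6 stood at 39.8 ± 1.72 CPM with Col3a1 (7 UMIs) and 111 ± 4.29 CPM without it (5 UMIs). All 34 Bmp6 UMIs lay in the 33 barcodes with Muc16, and all 8 Bmp4 UMIs in the 35 barcodes with Wt1. Those barcodes held most of the UMIs of the set: 86.0% lay in barcodes with Gpm6a, 79.6% in those with Col3a1, 81.8% in those with Muc16 and 83.9% in those with Wt1. The splits are descriptions over barcodes of 2 libraries, with no test.

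The members were also compared by mitochondrial share. In the 20 mesothelial-marker barcodes with over 20% mitochondrial UMIs, Bmpr1a stood at 277 ± 8.85 CPM, against 324 ± 38.2 CPM in the 33 with at most 20%. Bmpr1b stood at 205 ± 157 CPM in the high-mitochondrial barcodes and 418 ± 153 CPM in the others. Bmpr2 stood at 47.3 ± 66.9 CPM, from 2 UMIs, in the high-mitochondrial barcodes and 242 ± 39.3 CPM in the others. Bmp4 had 3 UMIs of 1 barcode in the high-mitochondrial barcodes, at 136 and 0 CPM in replicates 1 and 2, against 40.5 and 19.5 CPM in the others. Bmp6 stood at 23.6 ± 33.4 CPM, from 1 UMI, in the high-mitochondrial barcodes and 193 ± 52.0 CPM in the others. Tgfbr3 stood at 432 ± 411 CPM in the high-mitochondrial barcodes and 507 ± 27.6 CPM in the others. The high-mitochondrial barcodes held 43278 UMIs in all and the others 176659, and these values were not tested.

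**Figure D4:**
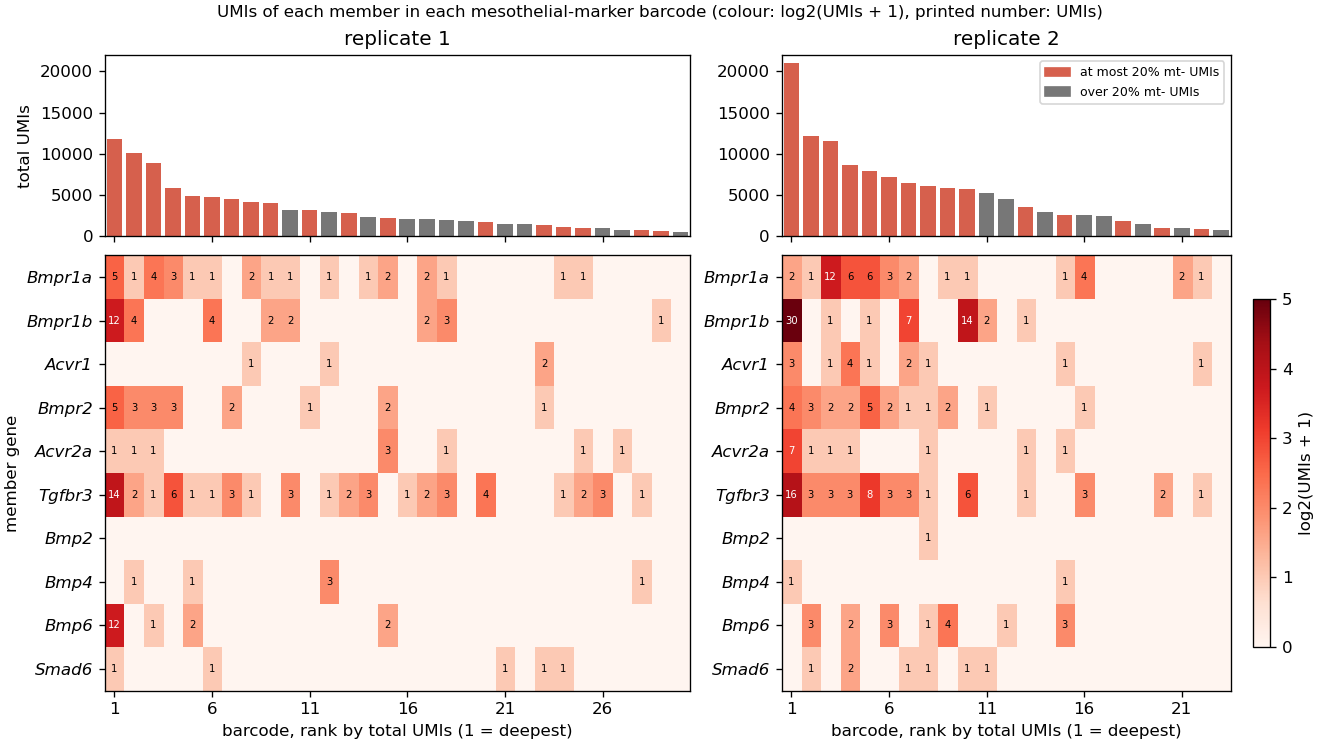
UMIs of each gene (rows; colour is log2 of UMIs + 1, printed numbers are UMIs) in each mesothelial-marker barcode of replicate 1 (left) and replicate 2 (right), ordered by total UMIs, with the total above each column and barcodes of over 20% mitochondrial UMIs in grey. Tgfbr3, Bmpr1a and other members reach into shallow barcodes, Bmpr1b with 1 UMI in a replicate 1 barcode of 672 UMIs. The deepest barcodes hold 12 and 30 UMIs of Bmpr1b.

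Outside the marked sets, the 863 remaining barcodes held 55 member UMIs. Tgfbr3 gave 22 of them in 21 barcodes and Bmpr1b 18 in 14 barcodes. All of these barcodes had over 20% mitochondrial UMIs, and the median barcode with Tgfbr3 held 44 and 45 genes in replicates 1 and 2. Most remaining barcodes were alike: 713 of the 863 had over 20% mitochondrial UMIs, and the median was 43 and 55 genes. Bmpr1a had 1 UMI in the remaining barcodes. Among the remaining barcodes 6 in replicate 1 and 5 in replicate 2 held at least 2 of 12 endothelial markers, led by Vwf and Pecam1, which platelets also carry. The highest platelet genes there were Itgb3 at 3078 ± 966 CPM and Ppbp at 2767 ± 366 CPM, and the lowest was Gp1bb at 126 ± 178. Of the endothelial genes Vwf stood at 875 ± 10.3 CPM, Pecam1 at 605 ± 36.6 and Flt1 at 426 ± 467. Egfl7 stood at 189 ± 267 CPM, Tek at 174 ± 110, Ptprb at 126 ± 178 and Emcn at 63.0 ± 89.1. Tie1 and the endothelial cadherin Cdh5 stood at 48.2 ± 68.2 CPM each, and Kdr, Cldn5 and Erg at 0. The barcodes were picked by these endothelial genes and held both kinds, so no cell type is given to them. These 11 barcodes held 3 member UMIs, 1 each of Acvr1, Bmpr2 and Bmp6.

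The wider pathway was described with 85 genes of ligands, receptors, modulators, Smads and targets, of which 83 were in the files and 15 passed the filter on low counts. Of these 15, 9 were called higher in the mesothelial-marker sums and 0 lower by edgeR, where 20.3% of all genes tested were called higher and 9.67% lower. Beside the 5 members, they were 4 extracellular modulators. The 5 members, Tll1, Fstl1 and Twsg1 passed the filter through the mesothelial-marker sums alone, so this count and their p-values too are a description. Tll1, a protease that cleaves the BMP antagonist chordin, had 33 and 80 UMIs in the mesothelial-marker sets and 0 in both Ptprc sets, at 495 ± 215 CPM in mesothelial-marker barcodes (edgeR adjusted p = 9.31e-07). Fstl1, a follistatin-like secreted glycoprotein, stood at 159 ± 4.05 CPM in mesothelial-marker barcodes, with 0 UMIs in Ptprc barcodes (edgeR adjusted p = 0.000133). Twsg1, a BMP-binding modulator, stood at 251 ± 45.7 CPM in mesothelial-marker barcodes and 24.8 ± 20.1 CPM in Ptprc barcodes (edgeR adjusted p = 0.00101). Crim1, a membrane protein that binds BMPs, stood at 319 ± 4.96 CPM in mesothelial-marker barcodes and 84.0 ± 8.46 CPM in Ptprc barcodes (edgeR adjusted p = 0.0493).

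The 6 other genes tested, the member Acvr2a among them, were not called. The TGF-beta receptor Tgfbr2 stood at 201 ± 9.84 CPM in mesothelial-marker barcodes and 188 ± 10.7 CPM in Ptprc barcodes. Smad4, the partner of all receptor Smads, stood at 121 ± 23.7 CPM in mesothelial-marker barcodes and 116 ± 53.4 CPM in Ptprc barcodes. Smurf2, a ubiquitin ligase for Smads and receptors, stood at 126 ± 41.7 CPM in mesothelial-marker barcodes and 181 ± 35.6 CPM in Ptprc barcodes. Tgfbr1 had a log2 fold change of 0.67 and Smad3 one of 1.30, with edgeR adjusted p = 0.697 and 0.371.

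The BMP Smads and the target genes did not pass the filter and were not tested. The BMP Smads were at 82.6 ± 43.3 CPM (Smad1), 58.3 ± 8.97 CPM (Smad5) and 68.1 ± 50.6 CPM (Smad9) in mesothelial-marker barcodes, against 2.65 ± 3.74, 7.94 ± 11.2 and 0 CPM in Ptprc barcodes. Id1, a direct BMP target, had 4 and 24 UMIs in the mesothelial-marker sets, against 5 and 0 UMIs in the Ptprc sets. Id3, another direct target, had 6 and 18 UMIs in the mesothelial-marker sets, against 2 and 0 UMIs in the Ptprc sets. Id2 ran the other way in count, with 1 and 2 UMIs in the mesothelial-marker sets against 21 and 0 UMIs in the Ptprc sets. The ligand Tgfb1 had 2 and 0 UMIs in the mesothelial-marker sets, against 33 and 2 UMIs in the Ptprc sets. In all 1857 barcodes 29 of the 83 genes had 0 UMIs. They include the secreted antagonists Nog, Chrd, Grem1 and Sost, 12 of 20 BMP and GDF ligands such as Bmp3, Bmp5 and Gdf5, and the targets Msx1, Msx2 and Dlx5.

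The genes found in most nearly the same barcodes as each member, by the share of barcodes with both among those with either, were picked out of 6530 genes over all 1857 barcodes. For Bmpr1a this was Myo5b, a myosin motor, with 22 of 36 barcodes (61.1%), followed by Zfp462 with 59.5%. For Tgfbr3 it was Bnc2 with 42.3% and Efna5 with 40.3%. For Acvr2a it was the collagen receptor Ddr1 with 42.3%, for Bmp6 Btbd3 with 43.8%, for Acvr1 Cacna2d1 with 40.9%, and for Bmpr2 Lmbr1 with 38.5%. Bmpr1b had lower likeness, with 28.6% for both Arhgap6 and Dab2, and Smad6 reached 33.3% with Rasal2. These shares come from barcodes of the same 2 libraries, and the part of depth in them was not tested.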

How the data were processed

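Gene expression was measured per cell barcode in 2 10x Chromium libraries of 1 group. The deposited files hold whole-number UMI counts of each gene in each barcode, which the authors had not normalized. The tools named are Cell Ranger 7.1.0 and Seurat 5, on the mm10 build, per the submitters' processing notes; these do not say which step used Seurat. Barcode calling, intron counting and doublet removal are not given in the sources used here, and no doublet caller was run. Replicate 1 held 1008 barcodes and 3967318 UMIs, and replicate 2 held 849 barcodes and 3329292 UMIs. The members and all lists were chosen with earlier results of these data known.

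No filter on genes or mitochondrial share was put on barcodes. Deposited counts were summed per set and library and given per 1e6 UMIs of the set (CPM), with exact Poisson intervals for levels and exact binomial (Clopper-Pearson) intervals for shares, at 95% (scipy 1.17.1). The floor is 3 UMIs over the set (3 barcodes for a share of 0), and folds against a set at 0 are bounds against it, pooled over both libraries unless a library is named. Thinning gives the hypergeometric expectation at 500 UMIs or 1000 UMIs per barcode, without shallower barcodes. The 4 sums of the mesothelial-marker and Ptprc sets were tested with edgeR 4.0.16 in R 4.3.3 (filterByExpr, TMM scaling, quasi-likelihood test, library as a block, Benjamini-Hochberg over 2183 genes). The sets share their libraries, which is why the library is a block; deviations of sums of 1 library had a correlation of -0.03 over these genes. P-values rest on a spread shared across genes that is left after the library block, and cover these 2 libraries alone. Alternatives were DESeq2 1.42.0, other scalings, no low-count filter, no block, globin sums added, and other limits for the sets.

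All 10 members are named. Other pathway genes could be named with at least 5 UMIs in a set, at most 24, or where given as not detected. Likeness was computed for members and genes found in at least 10 barcodes. Of 32285 gene IDs, 32235 matched GENCODE M21, the source of coordinates. RefSeq promoters matched 8 of 10 members by symbol.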

Additional observations from a re-analysis of the deposited data

How the results depend on the processing

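Bmpr1a, Bmpr1b, Bmpr2, Tgfbr3 and Bmp6 kept a positive fold change under every alternative that gave a value, and none reversed. Without the deepest mesothelial-marker barcode of each library, Bmp6 did not pass the low-count filter and was not tested. Its level there was 112 ± 75.1 CPM, at 59.3 CPM in replicate 1 and 166 CPM in replicate 2. With no replicate block, 539 genes were higher, 289 lower and 6 members higher, Acvr2a joining at 2.05 (adjusted p = 0.0108). DESeq2 called 85 genes higher and 26 lower, and 1 member (4 of the 6 had an unadjusted p under 0.05). Its log2 fold changes were 3.77 for Bmpr2 (adjusted p = 0.406) and 4.55 for Tgfbr3 (0.172); Bmpr1a had an adjusted p of 0.0809 and Bmp6 none. Without the low-count filter 244 genes were higher and 101 lower, with 3 members called. Scaling by UMIs other than globin and mitochondrial ones gave 325 lower. Across scalings and tools the median over all genes ran between -0.25 and 0.50. The summed mesothelial-marker level was 2100.1 per 1e6 UMIs other than globin and mitochondrial ones, 1975 CPM with at most 20% mitochondrial UMIs, 1941 CPM with at least 3 markers, 1755 CPM with overlapping barcodes kept and 1543 CPM without the deepest barcode of each library. The share of mesothelial-marker barcodes with a member was 51.7% thinned to 500 UMIs and 67.8% thinned to 1000; in Ptprc barcodes it was 2.98% and 6.62%. Leaving out 1 library, the mesothelial-marker sum lay between 1809 and 1851 CPM and its share between 78.3% and 90%; the Ptprc sum lay between 0 and 175 CPM and its share between 0% and 19.8%. With 1 library no test of the fold changes is possible, since no residual degrees of freedom are left. The cause of these shifts was not tested. Depth limits Bmp2, Bmp4, Acvr1 and Smad6 most.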

Other observations

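The balance of the members in the remaining barcodes differed from that in the mesothelial-marker set. In the mesothelial-marker set, Bmpr1a gave 70 of the 178 UMIs of Bmpr1a and Tgfbr3 (39.3%, exact binomial 95% interval 32.1 to 46.9). In mesothelial-marker barcodes with over 20% mitochondrial UMIs it gave 12 of 31 (38.7%, 21.9 to 57.8), and in the remaining barcodes 1 of 23 (4.35%, 0.110 to 21.9). Against Bmpr1b, Bmpr1a gave 70 of 156 UMIs in the mesothelial-marker set (44.9%, 36.9 to 53) and 1 of 19 in the remaining barcodes (5.26%, 0.133 to 26.0). The pooled intervals of the mesothelial-marker set and the remaining barcodes did not overlap in either pair, but within each library they did. For Bmpr1a and Tgfbr3 they ran from 23.7 to 44.9% in the mesothelial-marker set and 0 to 30.8% in the remaining barcodes of replicate 1, and from 34.0 to 54.8% and 0.195 to 36.0% in replicate 2. UMIs of 1 barcode are not independent, so these intervals are too narrow, and the difference was noticed in the data and not tested.

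Rgma, a co-receptor for BMPs, had 6 and 13 UMIs in the mesothelial-marker sets and 0 in both Ptprc sets. The co-receptor Eng, known from endothelium, had 0 UMIs in the mesothelial-marker sets. It had 8 UMIs in 2 of the 11 barcodes with at least 2 endothelial markers, which also held platelet genes. The antagonist gene Nbl1 had 11 and 7 UMIs in the mesothelial-marker sets and 0 in both Ptprc sets. Tgfb3 had 9 and 5 UMIs in the mesothelial-marker sets and 0 in both Ptprc sets.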
